A study of Capra hircus with 2 samples.

Results

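miR-101 is a conserved microRNA whose best known targets are PTGS2 (COX-2), the inducible enzyme that starts prostaglandin synthesis, and EZH2, the methyltransferase of histone H3 lysine 27. A microRNA pairs through its seed, the bases from position 2 to 8, with sites in messenger RNAs and lowers their translation or stability. Prostaglandins made through PTGS2 act on the vessels and stroma of the uterus when an embryo implants, and in the mouse uterus miR-101 and miR-199a-3p are known as repressors of PTGS2. The known miRNAs of goat endometrium were searched for every name of miR-101, with or without the letter a or b after the number, and 1 of the 587 distinct known names was found, cgr-miR-101b-3p_1ss22GT.

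The endometrium came from Xinong Saanen dairy goats that were 24 months old, brought into synchronized estrus and mated naturally. The pre-receptive endometrium (P library) was taken on day 5 of gestation and the receptive endometrium (R library) on day 15. The study mixed RNA of several goats per phase into pools and repeated the sequencing, and the deposited values give 1 library per phase. In these values the spread between goats was therefore not measured, the differences have no replicate check and no test between the phases was possible. The tissue is whole endometrium, in which fewer cells of a type and less RNA per cell cannot be told apart. Levels are given as the normalized expression (NE) of the deposited table, in which each read of an entry has the same worth within a library. A name listed for several precursors is given at the NE of 1 entry, while its reads are summed over its entries, and miR-101 has 1 entry.

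The sequence under the name of miR-101 is given with that of its hamster reference, from which it differs by G22T (base of the reference, position from the 5′ end, listed base), and with that of miR-144-3p, the closest listed sequence by seed. Capitals mark bases 2 to 8.
cgr-miR-101b-3p: tACAGTACtgtgataactgaag
cgr-miR-101b-3p_1ss22GT: tACAGTACtgtgataactgaat
hsa-miR-144-3p: tACAGTATagatgatgtact
The substitution lies at the 3′ end, and the seed is that of the hamster reference. The seed was carried by 0 of the other 586 known names and by 0 of the 621 predicted candidates. Bases 2 to 7 were shared by 2 known names, hsa-miR-144-3p and aja-miR-144, which stand for 1 mature sequence. No name of miR-101 from the 5p arm was found in the table, so its values describe the 3p arm alone. In the goat gene table of RefSeq (assembly ARS1.2), which is not the genome the study used, 1 gene is named for miR-101, MIR101, and its nearest named coding genes are JAK1 and AK4.

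miR-101 was an abundant miRNA in both phases, and its level was lower in the receptive endometrium. Its NE was 43585 in the P library (95% exact Poisson interval 43145 to 44028, from 37478 reads). In the R library its NE was 8689 (8520 to 8860, from 10105 reads). The intervals do not overlap, and on the deposited scale the NE in the P library was 5.02 times that in the R library (95% exact Clopper-Pearson interval 4.91 to 5.13). On the log2 scale the ratio of R to P was -2.33 (-2.36 to -2.29). The NE of all distinct known names summed to 4689686 in P and 1617096 in R, so the deposited values do not have a common total. With the listed reads of each library as the total, the log2 ratio of miR-101 was -0.80. Amplified reads that carry no molecular identifier do not stand for separate molecules, and these intervals cover counting error only.

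miR-101 took rank 12 of the 502 names above 0 in the P library and rank 23 of 532 in the R library, a lower place in the order on day 15. In the P library it stood between oar-let-7b_R+1 (48908 NE) and hsa-miR-125b-5p (27259 NE), and neither overlapped it within counting error. Above these stood oar-miR-199a-3p, oar-let-7c, oar-miR-181a and bta-miR-27b (84822 to 54410 NE), and below them 2 names of let-7i, oar-miR-22-3p_R+1 and mdo-miR-186-5p_R-1 (24830 to 19707 NE). In the R library its neighbours were eca-miR-24_R+1 (8886 NE) and the let-7a variant oar-let-7a_2ss11GA19AT (8660 NE). The exact intervals of both overlapped that of miR-101, so the order of these 3 names was not resolved at this depth. The names ranked next were ssc-miR-29a_L-1R-1, hsa-miR-151b_R+3, hsa-miR-126-3p and mdo-miR-186-5p_R-1 above (16016 to 9450 NE), and bta-miR-199b, oar-miR-16b_R+2, cgr-miR-23b-3p and hsa-miR-199b-5p_R-1_2ss10TC17TC below (7929 to 6004 NE). bta-miR-199b is listed for several precursors and stands below miR-101 only by the NE of 1 entry. Over its entries it had 18443 reads in R, against 10105 for miR-101. With the values of a name summed over its entries, miR-101 took rank 25 in R.

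**Figure D1:**
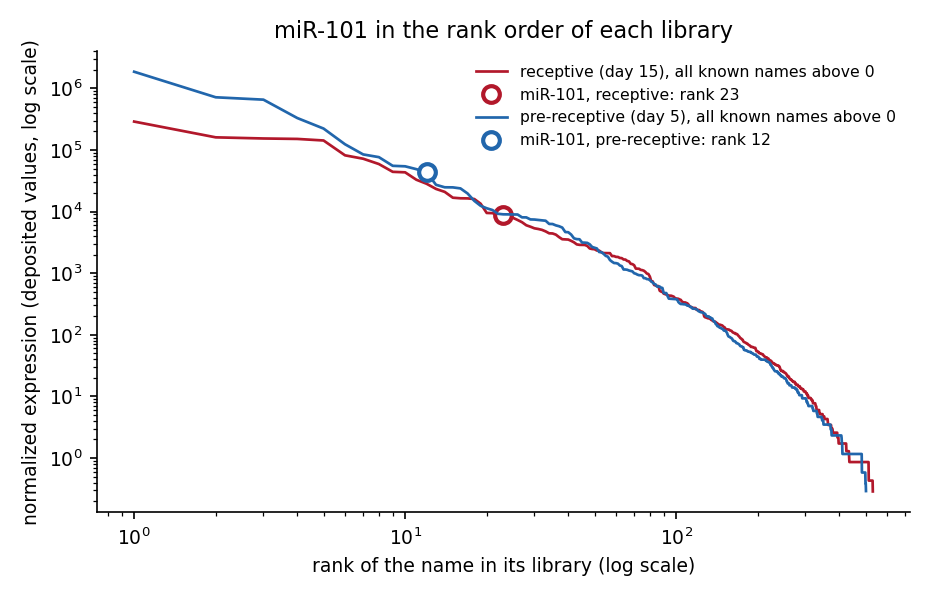
NE of the known names (y axis, log scale) against their rank (x axis, log scale) in the libraries R (red line) and P (blue line), with open circles for miR-101. Its circle lies at rank 12 and 43585 NE in the P library and at rank 23 and 8689 NE in the R library.

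A ratio of 2 names within a library does not depend on how the library was scaled. The level of miR-101 was 4.85 times that of eca-miR-24_R+1 in the P library and 0.978 times in the R library. Against oar-miR-16b_R+2 it was 5.83 times in P and 1.19 times in R. Against hsa-miR-144-3p, which shares bases 2 to 7, it was 219 times in P and 34.3 times in R. This name is 1 of 2 with equal values for the same sequence, so against the whole sequence both multiples would be lower. miR-101 was therefore lower in the R library relative to each of these 3 names under any scaling. Against cfa-miR-145, a miRNA of smooth muscle, it was 3.84 times in P and 4.09 times in R.

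Of the 438 names above 0 in both libraries with an NE of at least 1 in one of them, 72 (16.4%) had a log2 ratio under -1 and miR-101 was among them, while 100 (22.8%) had a ratio above 1. The median of the 438 names was 0.03. A ratio at or below that of miR-101 was found for 15 names including itself (3.42%), an order that no scaling changes. Of the 14 names below it, which reached -7.23, 9 had fewer than 100 reads in the R library. Among the 63 names with at least 1000 reads in each library, 2 lay below miR-101, aja-miR-143_1ss22GT and cfa-miR-145, and 60 lay above it. The median of these abundant names was -0.56, and miR-101 differed from it by -1.76. The other names below it with over 100 reads in the R library were oar-miR-133_L+1, bta-miR-490_R+1 and bta-miR-335_R-1, which were named after their values were seen.

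**Figure D2:**
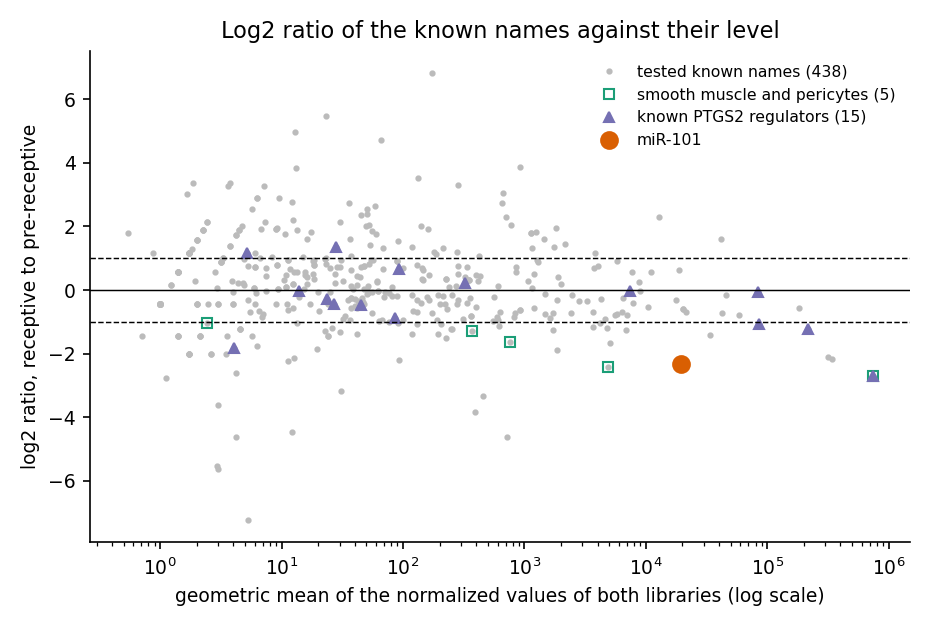
Log2 ratio of R to P (y axis) against the geometric mean of the NE of both libraries (x axis, log scale) for the 438 tested names (grey points), with miR-101 (orange), the names of smooth muscle and pericytes (open green squares) and those of the known PTGS2 regulators (violet triangles). Dashed lines mark log2 ratios of 1 and -1. miR-101 lies at -2.33, and aja-miR-143_1ss22GT, which is in both lists, at -2.69.

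The size of the difference depended on the library scaling and its direction did not. The ratio of miR-101 was below 0 in all 9 scalings that were run and under -1 in 7 of them. With reads scaled to the clean reads of each library the log2 ratio was -1.54 (95% exact interval -1.58 to -1.51). With the summed reads of the listed known miRNAs as the total it was -0.80 (-0.84 to -0.77), which is within the fold of 2 and equals a 1.75 times higher share in the P library. miR-101 held 0.926% of the listed reads in P (95% exact binomial interval 0.917% to 0.936%) and 0.531% in R (0.520% to 0.541%). Leaving the most abundant name, aja-miR-143_1ss22GT, out of that total gave -1.25. With the median of the tested names set to 0 it was -2.36. These scalings add 0.78, 1.52, 1.08 and -0.03 to the log2 ratio of every name, and a shift of 2.33 would be needed to bring miR-101 to 0. The split of the names past the fold moved with them, from 72 lower and 100 higher as deposited to 30 and 195 with the clean reads, to 13 and 315 with the listed reads and to 20 and 236 without the most abundant name. With the median of the names with at least 100 reads in each library set to 0, the split was 50 and 139. Without the 5 most abundant names in the total it was 51 and 138, and with the upper quartile of the tested names set equal it was 80 and 92.

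**Figure D3:**
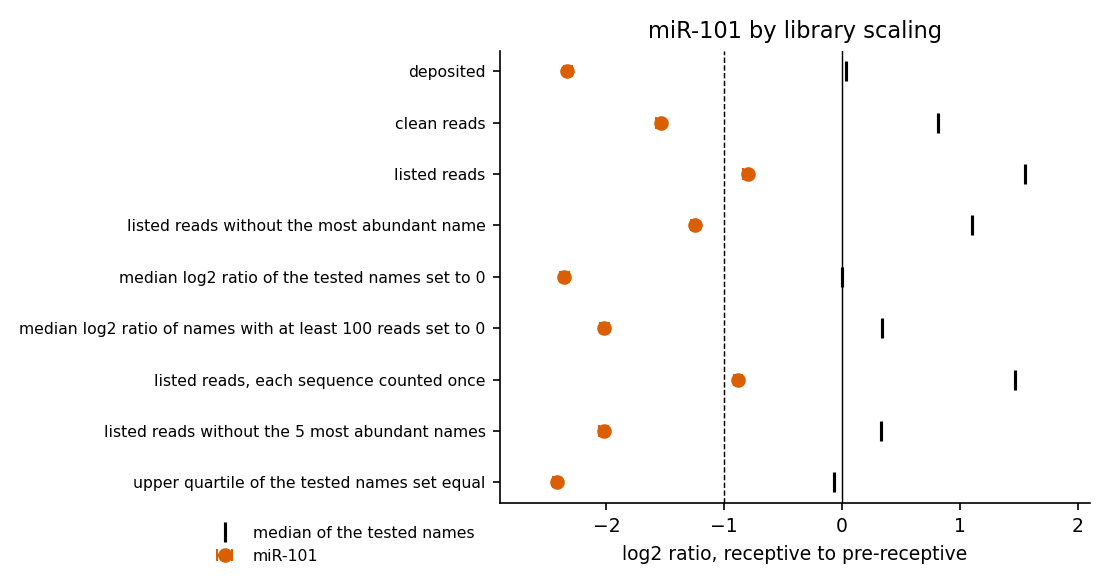
Log2 ratio of R to P of miR-101 (orange points with 95% exact intervals) and the median of the 438 tested names (black bars) under each of the 9 library scalings (y axis). The solid line marks 0 and the dashed line -1. miR-101 lies between -2.42 and -0.80, to the left of the median in each scaling.

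The 10 abundant sequences with a ratio nearest to that of miR-101, by the absolute difference in log2 ratio between these 2 libraries, were led by cfa-miR-145, a miRNA known from contractile smooth muscle. It had 11339 NE in P and 2123 NE in R, with a log2 ratio of -2.42, a difference of 0.09 from miR-101. Next was oar-miR-10b_L+1R-1, a miRNA of the HOX clusters listed with the same sequence as oar-miR-10a_R+1_1ss12TA, with 718168 NE in P, 160642 NE in R and a log2 ratio of -2.16. aja-miR-143_1ss22GT, transcribed with miR-145, had 1866274 NE in P, 289634 NE in R and a log2 ratio of -2.69. hsa-miR-28-3p_1ss11TA had a ratio of -1.88, on 3577 NE in P and 972.5 NE in R. The exact interval of cfa-miR-145 (-2.48 to -2.35) overlapped that of miR-101, and those of the other 3 did not. The remaining 6, bta-miR-320a, oar-miR-181a, hsa-miR-181c-5p_R+1, ptr-miR-92_R+2, oar-miR-26a and mdo-miR-181b-5p, had log2 ratios from -1.65 to -1.19. With the listed reads as the total, all of these 6 but bta-miR-320a were higher in R, while miR-101 and the first 4 were lower. The sequences of these 4 are given to show that none has the seed of miR-101.
cfa-miR-145: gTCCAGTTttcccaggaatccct
oar-miR-10b_L+1R-1: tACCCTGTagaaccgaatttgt
aja-miR-143_1ss22GT: tGAGATGAagcactgtagctct
hsa-miR-28-3p_1ss11TA: cACTAGATtgagagctcctgga

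**Figure D4:**
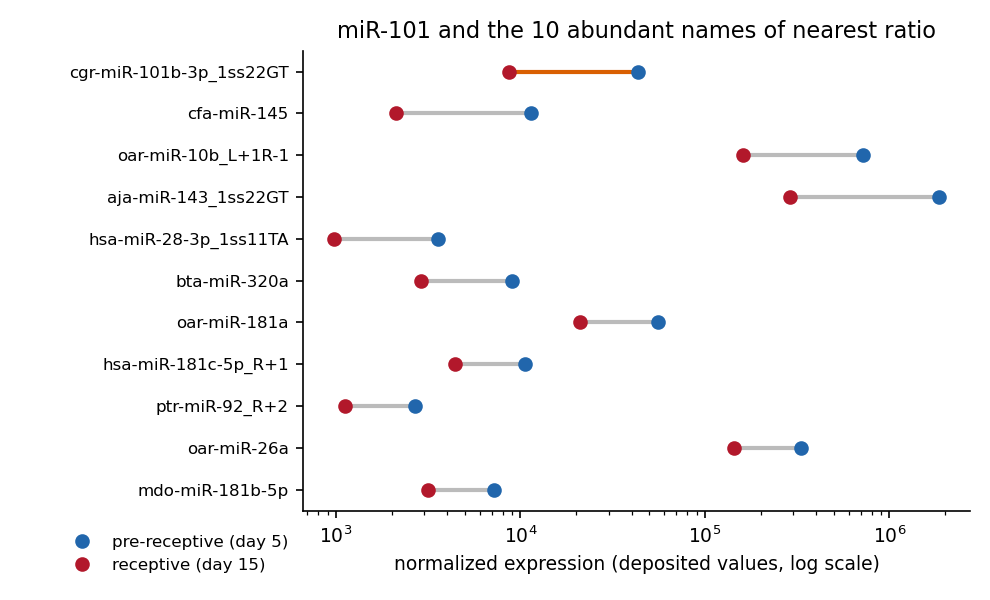
NE (x axis, log scale) of miR-101 and of the 10 abundant sequences with the nearest log2 ratio (y axis, in order of nearness) in the P library (blue) and the R library (red). The line of miR-101 (orange) runs from 43585 to 8689 NE, and each of these names is lower in the R library on this scale, while 5 of them (oar-miR-181a, hsa-miR-181c-5p_R+1, ptr-miR-92_R+2, oar-miR-26a and mdo-miR-181b-5p) are higher in R with the listed reads as the total.

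miR-101 is 1 of several miRNAs known to repress PTGS2, and the others did not share a ratio. All 6 miRNAs of this list (miR-199a-3p, miR-26a, miR-26b, miR-143-3p, miR-146a and miR-16) were found, as 15 names, of which 4 had a log2 ratio under -1 (against 16.4% of all tested names), 2 above 1 (against 22.8% of all) and 9 between, with a median of -0.28, and 9 of the names below 0 turned above it with the listed reads as the total. Their summed level was 2413744 NE in P and 581690 NE in R, aja-miR-143_1ss22GT was the most abundant and 0 were at 0. The log2 ratio of their sums was -2.05, and -0.53 with the listed reads as the total. The 4 names under -1 became 2 with the clean reads and 1 with the listed reads, beside 30 and 13 of the 438 tested names. The 2 names above 1 became 4 with the clean reads and 10 with the listed reads, beside 195 and 315 of the 438 tested names. The part of these regulators in the difference of miR-101 was not tested. oar-miR-199a-3p, which is known to act on PTGS2 beside miR-101 in the mouse uterus, had 84822 NE in P and 82015 NE in R, a log2 ratio of -0.05. The level of miR-101 was 0.514 times that of oar-miR-199a-3p in P and 0.106 times in R. oar-miR-26a had 330582 NE in P and 142847 NE in R, with a log2 ratio of -1.21. oar-miR-26b_R+1, of the same seed, had 124009 NE in P and 59230 NE in R, with a log2 ratio of -1.07. Both changed sign when the listed reads were the total, to 0.31 for oar-miR-26a and 0.46 for oar-miR-26b_R+1. The ratios of oar-miR-16b_R+2 and bta-miR-146a_R-1_1ss23GA were -0.03 and 0.23. The 2 names above 1, hsa-miR-26a-1-3p_1ss9TC and hsa-miR-26b-3p, are the opposite arms of miR-26a and miR-26b, with at most 52 reads in a library, and they do not carry the seed for which the list was made. The opposite arms hsa-miR-26a-2-3p and hsa-miR-16-2-3p_L+1R-1_1ss11CT are also among the 15 names and in their median. The fourth name under -1, the shortened oar-miR-26b_L-2, rested on 2.5 reads in R.
oar-miR-26a: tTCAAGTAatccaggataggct
oar-miR-26b_R+1: tTCAAGTAattcaggataggtt
oar-miR-199a-3p: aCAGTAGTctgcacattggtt

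Known repressors of EZH2 are miR-26a, miR-138, miR-214 and miR-124, and 11 of their names were listed. Of the 8 that passed the filter, oar-miR-26a alone was under -1 on the deposited scale (against 16.4% of all tested names) and 0 were with the listed reads (against 13 of the 438 names), hsa-miR-26a-1-3p_1ss9TC and hsa-miR-138-5p were above 1 (against 22.8%), and the median was -0.23. The 2 names above 1 became 3 with the clean reads and 6 with the listed reads, beside 195 and 315 of the 438 tested names. The names summed to 331665 NE in P and 144281 NE in R, nearly all of it oar-miR-26a, and the log2 ratio of the sums turned from -1.20 to 0.32 with the listed reads as the total. The 8 names and their median include the opposite arms hsa-miR-26a-1-3p_1ss9TC, hsa-miR-26a-2-3p and hsa-miR-214-5p. hsa-miR-214-3p had 668.7 NE in P and 1099 NE in R, a log2 ratio of 0.72. hsa-miR-138-5p had 4 reads in P and 11 in R. Names at 0 in P were cfa-miR-138a_R+3 and the 2 names of miR-124, a miRNA known from neurons, and in R each of these 3 had at most 1 read. The part of this list in the difference of miR-101 was not tested. Each of the 2 names of the miR-144-3p sequence had 198.9 NE in P and 253.2 NE in R, with a log2 ratio of 0.35. Their reads in R, 294.5 each, are not whole, so the reads of the sequence appear split between the names. The level of the sequence would then be above that of either name.

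Lists of miRNAs used as markers of a cell type were compared, since endometrium holds epithelium, stroma, vessels and blood cells and may carry myometrium. Their miRNAs need not be limited to the cell type of the list, and the lists do not measure the share of a cell type. The 5 names of smooth muscle and pericytes (miR-143 and miR-145) were all under -1 (against 16.4% of all tested names), although 2 of them, hsa-miR-143-5p_1ss22TA and mmu-miR-145b_R-3_1ss18GT, turned to 0.25 and 0.50 with the listed reads as the total. mmu-miR-145b_R-3_1ss18GT rested on 3 reads in P and 2 in R, and the interval of its log2 ratio (-4.60 to 2.11) includes 0. The 5 under -1 became 2 with the clean reads (against 6.85% of all tested names) and 1 with the listed reads (against 2.97%). The list had a summed level of 1879528 NE in P and 292431 NE in R, nearly all of it aja-miR-143_1ss22GT, and 0 of them were at 0. The log2 ratio of the sums was -2.68, and -1.16 with the listed reads as the total. Of the 6 names of striated muscle, 5 were under -1, against 16.4% of all tested names. With the clean reads 4 were (against 6.85% of all) and with the listed reads 4 (against 2.97%). The names of miR-499, 2 of the 6, turned above 0 with the listed reads as the total. Of the 5 under -1, 3 (hsa-miR-1_1ss1TC, hsa-miR-133a-5p and oar-miR-133_L+1R-2) had at most 1 read in R. The list summed to 3795 NE in P and 210.7 NE in R, led by oar-miR-133_L+1 and with 0 at 0, while miR-133b and miR-206 had no name in the table. For these sums the log2 ratio was -4.17, and -2.65 with the listed reads as the total. The sums of both muscle lists were lower in R, as was miR-101, and their part in its difference was not tested.

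None of the tested names of the other cell types had a log2 ratio under -1 on the deposited scale. In the epithelial list, 13 of 14 tested names were above 1 (against 22.8% of all tested names) and 0 under -1. Among the 13, hsa-miR-205-3p_R+1_1ss19TC rested on 3 reads in R and 1 in P, and its interval (-2.49 to 6.86) includes 0. hsa-miR-141-5p_1ss11TC had 13 reads in R and 1 in P. The 17 epithelial names summed to 6997 NE in P and 38636 NE in R, hsa-miR-141-3p_R-1 was the most abundant, miR-200b had no name in the table and 3 names were at 0 in P. Of the 5 tested names of ciliated epithelium 3 were above 1, with 1234 NE in P and 4872 NE in R, hsa-miR-34c-5p the most abundant, 3 of 8 names at 0 in P and none listed for miR-449c. The 7 names of fibroblasts and stroma were all within the fold, with 97155 NE in P and 97321 NE in R, and oar-miR-199a-3p was the most abundant. The 5 names of endothelial miR-126 were within the fold, with 21288 NE in P and 32841 NE in R, led by hsa-miR-126-5p. The 6 erythroid names were within the fold, with 8749 NE in P and 5580 NE in R, led by cgr-miR-486-5p. Of the 4 tested leukocyte names 2 were above 1, with 5218 NE in P and 7811 NE in R, led by cgr-miR-142-5p_L-2R+1. In this list 2 names were at 0 in P and none was listed for miR-150 and miR-146b. The names of miR-142, listed for several precursors, enter these sums at the NE of 1 entry. So do bta-miR-199b among the stromal names and oar-miR-133_L+1 among those of striated muscle. The erythroid sum takes each miR-144 sequence at 1 of its names. Such sums are below the level given by all reads, and the ratios of sums can differ with it. The log2 ratio of the erythroid sums was -0.65 and turned to 0.87 with the listed reads as the total, that of the stromal sums went from 0.00 to 1.53, and that of the endothelial sums from 0.63 to 2.15. For the leukocyte sums it went from 0.58 to 2.11, for the epithelial sums from 2.47 to 3.99 and for the ciliated sums from 1.98 to 3.50. With that total all 7 stromal names, all 5 endothelial names and 3 of the 6 erythroid names were above 1, beside 315 of the 438 tested names. The 2 leukocyte names above 1 became 3 with it. Names at 0 in the stromal, endothelial and erythroid lists numbered 0. The part of these lists in the difference of miR-101 was not tested either.

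Targets of part of the miRNAs had been predicted by the authors, and 447 distinct gene identifiers were given for miR-101. This was 5.88% of the distinct identifiers in all, and below the median of 578.5 targets per miRNA (81 to 1331), with 94 miRNAs having more targets and 47 fewer. Of the 447, 3 were predicted for no other miRNA of the table, and the median target of miR-101 was also predicted for 20 other miRNAs. Over all identifiers the median was 8 miRNAs, and an identifier predicted for many miRNAs is also more often in the list of any one of them. aja-miR-143_1ss22GT had 105 targets in common with miR-101, which were 23.5% of the targets of miR-101 and 10.1% of its own. Over all identifiers, those of aja-miR-143_1ss22GT were 13.7% and those of miR-101 5.88%. cfa-miR-145 shared 113 (25.3% and 10.6%), with 14.1% of all identifiers. bta-miR-320a shared 108 (24.2% and 10.7%), with 13.3% of all. oar-miR-26a shared 73 (16.3% and 13.7%), with 6.98% of all. Lower counts were found for oar-miR-10b_L+1R-1, with 65 (14.5% and 9.33%) and 9.16% of all. hsa-miR-28-3p_1ss11TA shared 50 (11.2% and 15.7%), with 4.19% of all, and ptr-miR-92_R+2 47 (10.5% and 13.5%), with 4.59% of all. The miRNA with the most targets in common, named after its values were seen, was hsa-miR-153-5p_L+1_2ss15G-16TC, with 154 (34.5% and 13.9%) and 14.5% of all identifiers. The identifiers are numbers, of which 0 matched a gene of the RefSeq table, so that whether PTGS2 or EZH2 is among the 447 was not tested.

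**Figure D5:**
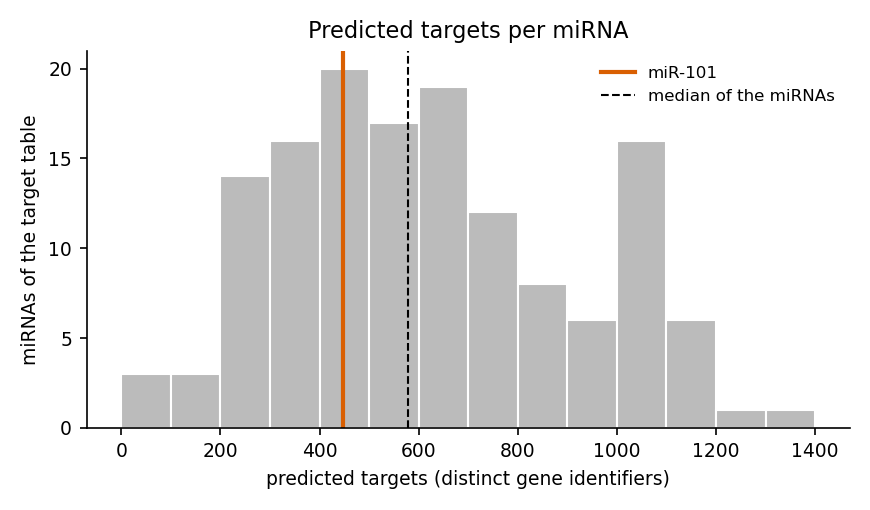
Number of miRNAs (y axis) by their number of predicted targets (x axis, distinct gene identifiers, bins of 100) for the miRNAs of the target table. The orange line marks the 447 targets of miR-101 and the dashed line the median of 578.5.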

How the data were processed

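Small RNA of 1 receptive (R) and 1 pre-receptive (P) endometrium library was sequenced. The authors matched the reads to miRBase after filtering out repeats, other kinds of RNA such as rRNA and tRNA, adapter sequence and junk reads. The deposited signal per name is the authors' NE, in which 1 read of an entry is worth 0.860 in R and 1.16 in P. This differs from the scaling to clean reads that the study's methods describe. Each name is a cluster of reads shown by its best-scoring sequence. Reads were recovered by division and summed over the entries of a name, and 85.2% of names in R and 87.5% in P came out whole within 0.01. A name listed for several precursors was counted once. The fold was an absolute log2 ratio above 1, for names above 0 in both libraries and at least 1 NE in one. Exact intervals of 95% came from the reads. The scalings tried are given with the results, together with other filters, a Fisher exact test and other units of ranking.

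The members and lists were chosen with earlier results of these data known. Names in the text are those of miR-101, the 10 sequences with at least 1000 reads in each library and the nearest ratio, the 5 names above and below it in each library, and the listed regulators of PTGS2 and EZH2 and names sharing bases 2 to 7. Members of the cell type lists that were the most abundant, rested on few reads or turned sign, the names below miR-101 and the miRNA with the largest target overlap were named after their values were seen. A list entry without a letter took every letter. Sums of a list counted each sequence once.

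The headers of the candidate table are exchanged against the steps of the known table, so both readings were run. The deposited target table holds other data, identifiers of genes and transcripts, from TargetScan and miRanda. Transcripts were to be counted, but each is listed once and not beside its miRNA, so gene identifiers were counted. The authors' table of fold changes, log2 ratios and p-values was not used. Statistics were tested on simulated data. The scripts ran in Python 3.11.15, with scipy 1.17.1 for the exact intervals and the Fisher test, pandas 2.3.3 and numpy 2.4.6 for the tables, and matplotlib 3.10.9 for the plots.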

Additional observations from a re-analysis of the deposited data

How the results depend on the processing

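The log2 ratio of miR-101 (-2.33) was below 0 under every scaling run: -1.54 with the clean reads, -0.80 with the listed reads, -1.25 without the most abundant name and -2.02 with the median of names with at least 100 reads set to 0. Scalings added after seeing the data gave -0.88 (listed reads, each sequence counted once), -2.02 (without the 5 most abundant names) and -2.42 (upper quartile). A pseudocount of 1 and the sum of all its names gave -2.33. Its rank was 21 in R and 11 in P among distinct sequences, and 25 in R with the values of a name summed over its entries, an alternative added after seeing the data. Candidates did not change it under either reading of their headers.

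The 72 names lower past the fold became 30 with the clean reads, 13 with the listed reads (also with each sequence counted once) and 20 without the most abundant name. With the median of the tested names set to 0 they were 72, without the 5 most abundant names 51 (138 higher) and with the upper quartile set equal 80 (92 higher), because each scaling adds a constant to every ratio. They were 40 with at least 10 reads in each library, 28 with at least 100, 27 at a log2 ratio under -2 and 37 with a two-sided Fisher exact test of the reads against the clean reads, which compares the libraries and not the phases. Names at or below miR-101 were 7 with at least 10 reads and 6 with at least 100, since fewer names entered. Its rows of the target table hold 37 transcript identifiers, and as many pairs.

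Of the 86 other names of the text and its lists with a ratio, those past the fold whose sign turned with the listed reads were hsa-miR-143-5p_1ss22TA (0.25, or 0.17 with each sequence counted once), hsa-miR-499a-5p (0.49, 0.41, and 0.04 without the most abundant name), mmu-miR-145b_R-3_1ss18GT (0.50, 0.42 and 0.05 in the same order), oar-miR-181a (0.12, 0.04), hsa-miR-181c-5p_R+1 (0.26, 0.18), mdo-miR-181b-5p (0.34, 0.26), ptr-miR-92_R+2 (0.27, 0.19), oar-miR-26a (0.31, 0.23) and oar-miR-26b_R+1 (0.46, 0.38, 0.01). These are 21 of 774 values, and no further names were counted. With names within the fold counted too, 135 values in 35 names took the other sign, because a scaling adds a constant. No paired analysis was possible because there was 1 library per phase. Depth limits the rank order in R and the names with few reads. The spread between goats was not measured.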

Other observations

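The deposited conservation table lists the hairpins matched in 23 species, and miR-101, miR-101a or miR-101b is among them in 12, as 18 hairpin names. Of these species 6 have 2 such hairpins and 6 have 1. The closest relatives of the goat in that table, sheep and cow, list no matched hairpin of this name, and the goat sequence carries the name of the Chinese hamster. Gorilla and rhesus monkey list none either. A species without a match here can still have a miR-101.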
